A study of Sus scrofa domesticus with 16 samples.

Results

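The 248 differentially methylated sites (DMSs) of pig chromosome 6 were every row of the authors' deposited table with chromosome 6 as its chromosome, with or without a gene symbol, out of 2349 DMSs in all. Reduced representation bisulfite sequencing, in which DNA is cut by MspI at CCGG and unmethylated cytosines are converted before sequencing, had been applied to lung tissue from the upper lobe of the left lung of 16 pigs. The standard dose of cholecalciferol (vitamin D3) was 2000 IU/kg of grower and 1500 IU/kg of finisher feed, given to 8 pigs, and the increased dose was 3000 and 2500 IU/kg, given to 8 others. Each group held 4 males and 4 females, all kept in individual pens, so every group received cholecalciferol and no group went without it. Whole lung mixes many cell types, so a difference in methylation within cells and a difference in the mix of cells cannot be told apart. The comparison asks which CpGs differ in methylation between the doses. Each DMS has a methylation difference in percentage points, read here as increased minus standard dose, and a q-value, the p-value adjusted for the number of sites tested. A gain is a higher and a loss a lower methylation at the increased dose, and no DMS lies under 25 points because that was the authors' limit. Values per animal and read depth were not analysed here, so no SD can be given. No source used here states if methylKit was run with a correction for variation among animals, and without one the q-values count reads rather than pigs and are too small.

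In mammals DNA methylation sits mostly on the cytosine of CpG dinucleotides. It is copied to the new strand at cell division, dense in repeats and in the bodies of transcribed genes, and usually low in CpG islands at active promoters. MspI cuts its site whether or not the inner cytosine is methylated, so the method samples CpGs close to CCGG, in islands and in CpG-rich repeats alike. Vitamin D acts mainly through its nuclear receptor, which binds DNA as a heterodimer with the retinoid X receptor and recruits coactivators, corepressors and chromatin-modifying enzymes.

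The sequences below show CpGs chosen from the 25 largest differences of chromosome 6 because the results turn on them (the leading gains and losses, the smallest q-value and the WWOX pair outside the main stretch), read from the RefSeq copy of Sscrofa11.1, with 25 bases to each side and the differential CpG in capitals. All are on the plus strand. The BCAT2 site is at chr6:54115903-54115954, the GRIN2D site at chr6:53835503-53835554, the CCDC114 site at chr6:53748888-53748939, the SCAF1 sites at chr6:54692640-54692736, the LOC110261361 site at chr6:54394374-54394425 and the WWOX sites at chr6:9199853-9199910.
BCAT2 intron: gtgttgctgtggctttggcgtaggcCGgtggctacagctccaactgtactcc
GRIN2D intron: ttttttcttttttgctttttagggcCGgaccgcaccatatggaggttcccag
CCDC114 intron: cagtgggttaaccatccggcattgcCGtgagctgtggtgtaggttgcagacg
SCAF1 intron: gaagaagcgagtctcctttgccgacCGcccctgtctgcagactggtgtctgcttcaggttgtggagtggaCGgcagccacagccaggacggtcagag
LOC110261361 intron: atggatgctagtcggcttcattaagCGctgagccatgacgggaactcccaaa
WWOX intron: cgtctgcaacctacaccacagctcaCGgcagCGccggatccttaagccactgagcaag

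The capitals of BCAT2 and GRIN2D lie inside the cut site CCGG itself. Across the chromosome 27 of 248 DMSs (10.9%) did so, beside 7.78% of the 2004 DMSs on other chromosomes, and the median distance from a DMS to CCGG was 39 bp with a maximum of 141 bp.

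Chromosome 6 held 145 gains and 103 losses. Gains made up 58.5% (exact 95% binomial interval over sites 52.1 to 64.7) of its DMSs and 59.4% of the 2101 on all other chromosomes and scaffolds. The median gain was 31.6 points and the median loss -30.8, beside 30.7 and -29.7 elsewhere. Row numbers in the table ran to 667810 and were read as rows of the authors' list of tested sites, of which the DMSs are 0.352% (gains 0.209%, losses 0.143%). From its first to its last DMS, chromosome 6 spans 68380 of these rows, of which 0.363% are DMSs. By direction, typical size and frequency, chromosome 6 as a whole thus lay close to the rest of the genome. The DMSs are not replicates, so intervals over sites describe these sites only.

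Where chromosome 6 stood apart was in the number of large differences. There were 25 DMSs of at least 50 points, which is 10.1% (6.63 to 14.5) of the chromosome's DMSs against 48 of 2101 (2.28%) elsewhere, and 34.2% of all such sites in the series, whereas the chromosome holds 10.6% of all DMSs. No test was made over sites. The next chromosome by number of DMSs, chromosome 3, had 5 of 209 (2.39%). At a limit of 40 points the shares were 24.6% and 12.4%. Among the 50 largest differences of the series 19 were on chromosome 6, as were 3 of the 10 largest.

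**Figure D1:**
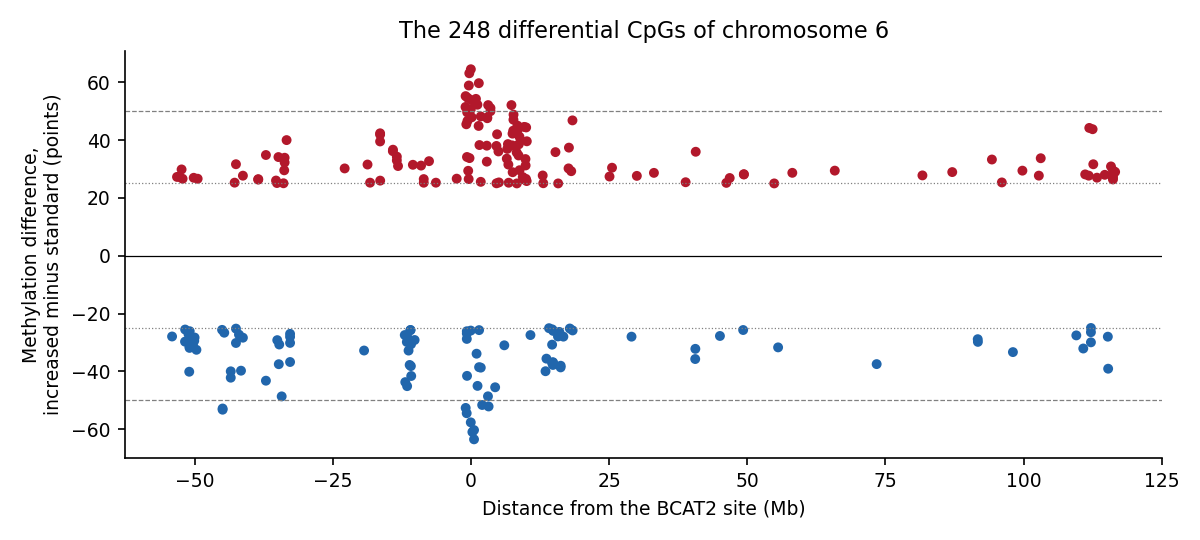
Methylation difference (vertical axis, percentage points, increased minus standard dose) of each of the 248 DMSs against its distance in Mb from the BCAT2 site (horizontal axis). Red points are gains and blue points losses, dotted lines mark 25 and dashed lines 50 points, and 23 of the 25 sites past the dashed lines crowd around and just to the right of the BCAT2 site.

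Position set these 25 apart. Outside the WWOX pair, the other 23 all fell between 53149759 and 61460092, where they were 37.1% of 62 DMSs. In the remaining 186 DMSs of chromosome 6 only the WWOX pair (1.08%) reached 50 points, and their median gain and loss were 29.5 and -30.1 points. The ends of the stretch were placed on its outermost large sites after their values were seen, so the contrast between inside and outside is a description. In windows of 5 Mb, the window from 50 to 55 Mb held 14 large sites and the window from 55 to 60 Mb held 8. Elsewhere in the series no such window held more than 5.

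**Figure D2:**
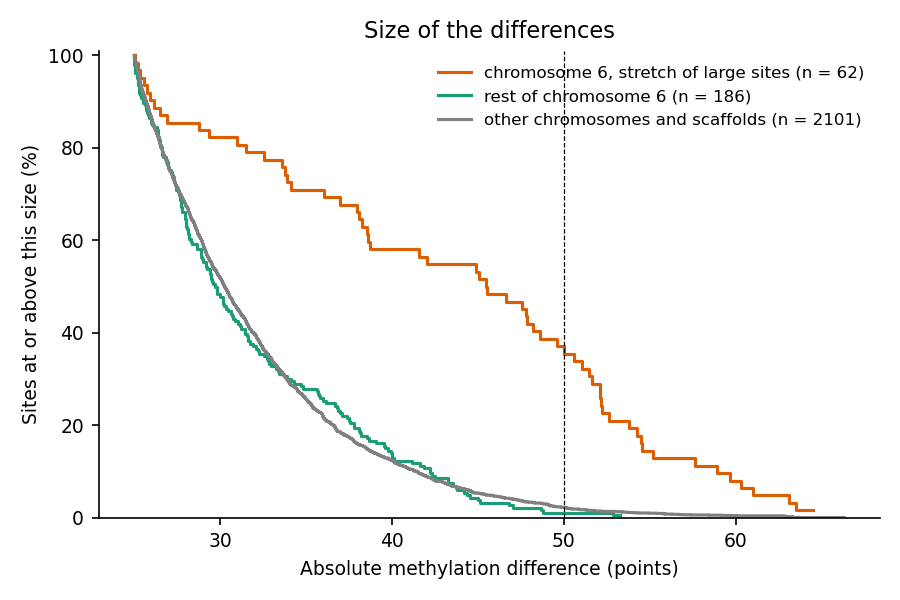
Share of DMSs (vertical axis, %) with an absolute methylation difference at or above the size on the horizontal axis (points). The curve of the 62 DMSs in the stretch of large sites lies far to the right and is at 37.1% at the dashed line of 50 points, while the other 186 DMSs of chromosome 6 (1.08%) and the 2101 of other chromosomes and scaffolds (2.28%) nearly coincide.

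The part of the stretch from 53 to 57 Mb held 40 DMSs, 23 gains and 17 losses, of which 18 reached 50 points. DMSs were 0.925% of the 4325 rows between its first and last site. Gains and losses of all sizes were interspersed here, with 19 changes of direction along the 40 sites. Whether this differs from a random order was not tested. Among the 18 large sites 11 were gains and 7 losses.

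The largest gain of the chromosome, 64.5 points (q = 3.6e-207), was in an intron of BCAT2, the mitochondrial aminotransferase that starts the breakdown of leucine, isoleucine and valine. BCAT2 occupies 54107682 to 54123595 on the minus strand, and the site at 54115928 lies 7667 bp from the gene's nearest start. Beyond the 3' end of the gene, 6388 bp from it, there was a gain of 50.6 points at 54101294, and 5616 bp from it a loss of -57.7 (q = 6.3e-174) at 54102066. These 3 neighbours all passed 50 points, and they did not share a direction.

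GRIN2D, which encodes an NMDA glutamate receptor subunit, had the next largest gain, 63.1 points (q = 4.9e-58), in an intron at 53835528. To its left, the intron of CCDC114, a docking protein of the outer dynein arms of motile cilia, gained 58.9 points at 53748913. That site's q-value is listed as 0, the smallest of the chromosome, and the table gives it no gene symbol. These 2 belong to a run of 8 consecutive gains from 53451314 to 53874737, with a median of 48.1 points. The run also held the intron of BSPH1, a sperm surface binder protein (54.6 points, q = 7.2e-108), an intron of the ribosome biogenesis gene NOP53 that the table labels SNORD23 after a small nucleolar RNA (49.6 points), and a site 2130 bp from CRX, a photoreceptor homeobox gene (46.6 points). It ended with an intron of CYTH2, an exchange factor for ARF GTPases (33.8 points).

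Losses of the same size stood on both sides of that run. An intron of MEIS3, a homeobox gene, had -52.7 points (q = 1.2e-77) at 53180706, right after a gain of 55.2 points at 53169548 with no symbol. BICRA, a subunit of a SWI/SNF chromatin remodelling complex, had an intronic loss of -54.5 at 53363479. The introns of SCAF1, a protein that binds the tail of RNA polymerase II, carried the largest loss of the chromosome, -63.5 points (q = 2.1e-63) at 54692665, and a loss of -60.3 (q = 3.6e-56) 45 bp further on. The largest loss without a symbol was -61.0 at 54394399, in an intron of LOC110261361. A site that the table assigns to CACNG8, an auxiliary subunit of AMPA receptors and calcium channels, and that is nearest to CACNG6 in RefSeq, closed this part at 56165169 with -51.6.

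Further large gains lay at DHX34, a helicase of nonsense-mediated decay (intron, 51.5 points), 568 bp from SNRNP70 at a site that the table assigns to LIN7B, a scaffold protein of cell junctions (53.8 points), in an intron of VRK3, a kinase-like protein of the nucleus (54.3 points, no symbol), in an intron of MYBPC2, the fast skeletal myosin-binding protein C (52.2 points, q = 5.9e-114), and 2337 bp from LOC100620498 (59.7 points, no symbol).

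**Figure D3:**
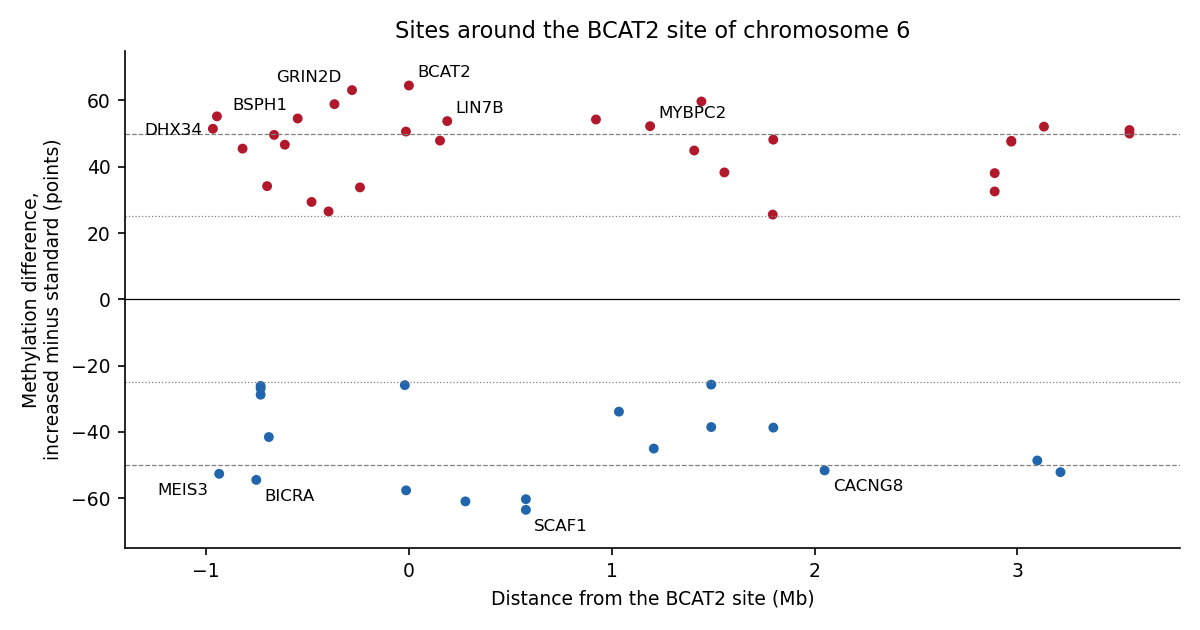
Methylation difference (vertical axis, percentage points, increased minus standard dose) against distance from the BCAT2 site in Mb (horizontal axis). Gene symbols of the table mark DMSs of at least 50 points (dashed lines). Large gains (red) and large losses (blue) occur in the same part of the chromosome, from 64.5 at BCAT2 to -63.5 at SCAF1.

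Right of 57 Mb the differences were still large but increasingly in 1 direction. From 57003603 to 58862167 there were 10 gains and 3 losses, of which 9 reached 40 points. Gains of 51.1 and 50 points lay 19 bp apart in an exon of the non-coding LOC106507707, and gains of 47.6 and 47.8 points 14 bp apart in one of LOC102158906. The losses here were -52.2 in an intron of LOC110261291, -48.6 in an intron of LOC110261288, and -45.5 in an intron of ETFB, a subunit of the electron transfer flavoprotein that serves fatty acid and amino acid oxidation. LENG9 gave its symbol to a gain of 42.0 points in the 3' UTR of the neighbouring LENG8.

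Then came the longest run of the chromosome, 30 gains in a row from 60619351 to 64240934 without a loss, with differences from 25 to 52.1 points and a median of 37.6. The next longest runs were 12 losses from 42159092 to 43325168 (median -31.7), 11 gains from 35419473 to 40939076 (median 34.3), 10 losses from 67627984 to 69006239 (median -36.2) and 9 losses from 2399694 to 3848191 (median -29.7). The 248 DMSs made 88 runs in all, of which 41 were single sites.

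The run of 30 gains opened in a cluster of zinc finger genes, whose products mostly bind DNA and, where they carry a KRAB domain, recruit silencing complexes to repeats. ZNF583 gained 37.0 points, ZNF304 gained 43.3 (q = 1.2e-77) and ZNF8 gained 41.2, all in introns. It closed with PRKCZ, an atypical protein kinase C, and SKI, a corepressor of TGF-beta signalling. PRKCZ had intronic gains of 26.6 and 44.4 points (q = 1.0e-161 for the larger), and SKI had one of 25.8 in an intron and one of 39.6 in its 3' UTR. Just before them, CFAP74, a protein of the ciliary axoneme, had gains of 31.2 and 33.4 points. The only gain of at least 50 points in the run, 52.1 in an intron of LOC110261077, was also the last large site of the chromosome.

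Directions differed between broad windows. In the window from 60 to 65 Mb 30 of 32 DMSs were gains. By contrast, losses were 13 of 19 DMSs from 0 to 5 Mb, 13 of 19 from 40 to 45 Mb and 11 of 15 from 65 to 70 Mb. Of the 35 windows, 15 held at least 5 DMSs and 3 held none. The 50 DMSs beyond 75 Mb were sparser, at 0.227% of the rows they span, and none reached 50 points.

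Genes with several DMSs were counted by RefSeq gene bodies. Of 122 genes with a DMS 26 held more than 1, and in 25 of those 26 all sites had the same direction. Some of these sites lie within a few bases of each other or in overlapping genes, so they cannot be taken as independent. All 6 genes with at least 3 DMSs had losses only.

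WWOX, an oxidoreductase gene that spans a common fragile site in humans, stretches over 961 kb here and had 4 intronic losses, from -25.7 to -53.3 points. Its largest were the pair of -53.3 and -52.9, only 6 bp apart. RERE, a nuclear receptor corepressor, had 4 losses from -26.0 to -37.8, none with a symbol in the table. CAMTA1, a calmodulin-binding transcription activator, had -40.0, -35.6 and -25.1 over 633057 bp. Both of these lie in the run of 10 losses. PEPD, the dipeptidase that frees proline and hydroxyproline from collagen fragments, had 3 losses in its body (-25.7, -25.7 and -38.2) and another loss labelled with its symbol (-30.6) 4333 bp upstream of its start. ZSWIM5, a zinc finger SWIM-domain gene, had -30.0, -26.5 and -25 within 41 bp.

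BICRA was the only one of these whose table symbol covered both directions. Its 4 losses inside the gene were -54.5, -26.9, -26.1 and -28.8, the last 3 within 8 bp, and a gain of 34.2 points labelled BICRA lay at 53416858, just past the gene's end at 53416834. FA2H, which hydroxylates fatty acids of sphingolipids, was the only gene with DMSs of opposite direction in its body, -28.4 and 27.7 points.

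**Figure D4:**
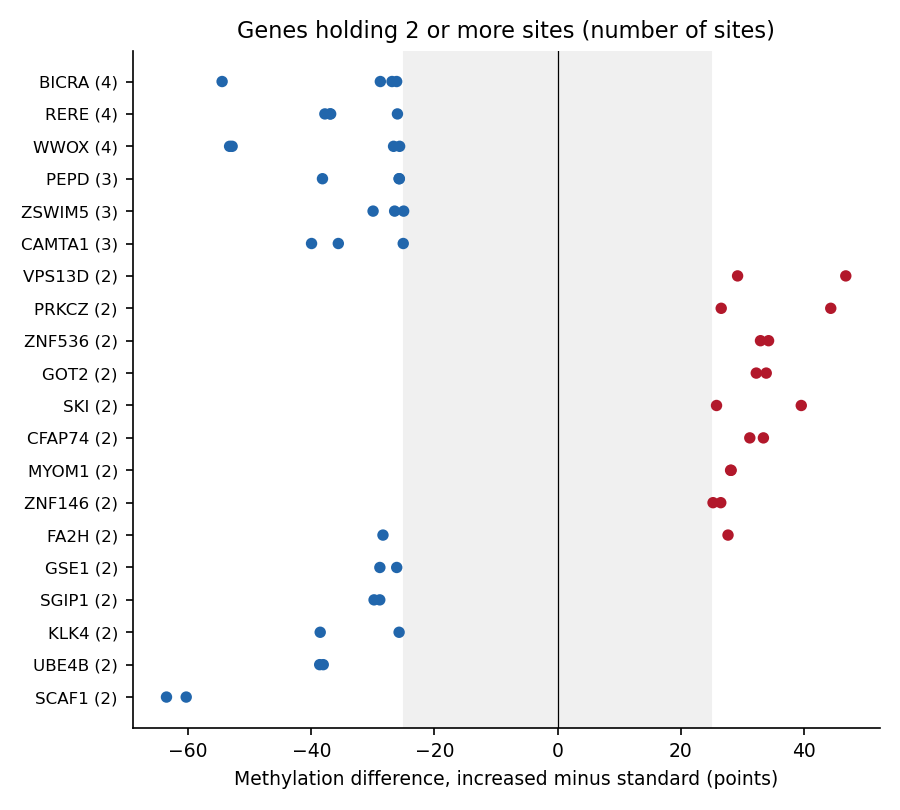
Methylation difference (horizontal axis, percentage points, increased minus standard dose) of each DMS in the named RefSeq genes of chromosome 6 that hold at least 2, with the number of sites in parentheses after each gene. The grey band marks the sizes under 25 points that the table leaves out, gains are red and losses blue, and FA2H is the only gene with both.

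Neighbouring DMSs mostly shared a direction at short range. Of 28 neighbours at most 100 bp apart 26 (92.9%, exact interval 76.5 to 99.1) had the same direction, beside 85.2% of 264 on other chromosomes and scaffolds. The 26 differed in size by a median of 1.93 points and by at most 12.8. Up to 50 bp 21 of 21 shared a direction. Further apart, the share did not fall evenly with distance. It was 2 of 4 from 100 to 1000 bp and 4 of 7 from 1000 to 10000 bp. From 10000 to 100000 bp 53 of 70 neighbours (75.7%) shared a direction, and from 100000 to 1000000 bp 58 of 100 (58.0%). Sites at most 100 bp apart can be covered by the same reads. After sites up to 100 bp apart were joined, 220 separate positions remained.

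The largest groups were of 4 sites each. At 21405572 to 21405692, between genes in RefSeq, all 4 were losses (-36.8, -27.0, -30.2 and -28.1). The paper's annotation places the loss of -36.8 in an exon of a non-coding transcript. At 170295787 to 170295899 all 4 were gains (26.4, 29.5, 27.7 and 26.9).

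The 2 exceptions were both between genes. At chr6:17036320-17036442, upstream of PSMD7, a subunit of the proteasome lid, a gain of 34.8 points at 17036345 stood 71 bp from a loss of -43.2 at 17036416. At chr6:11614513-11614645, upstream of CNTNAP4, a neurexin-family adhesion protein, losses of -30.2 and -25.2 were followed 81 bp later by a gain of 31.6. The plus strand of both is shown, with the 2 CpGs of opposite direction in capitals.
PSMD7 upstream: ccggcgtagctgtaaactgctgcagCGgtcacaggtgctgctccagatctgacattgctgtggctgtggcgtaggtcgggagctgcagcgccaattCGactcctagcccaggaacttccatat
CNTNAP4 upstream: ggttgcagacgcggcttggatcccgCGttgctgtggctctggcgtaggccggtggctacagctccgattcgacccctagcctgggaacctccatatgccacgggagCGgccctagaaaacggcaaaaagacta

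By the gene structure of RefSeq, 139 of the 248 DMSs were in introns and 92 between genes. The rest were 6 in 3' UTRs, 5 in non-coding exons, 5 in promoters (the 1000 bp before a gene) and 1 in a 5' UTR. By these models none was in a coding exon, where other chromosomes had 26 of 2004 (1.30%). The paper used another annotation, in which the site at 60963701, a promoter site here, is a synonymous coding one. These classes thus depend on the gene models. RefSeq gene bodies covered 60.9% of DMSs on chromosome 6 and 62.1% on other chromosomes. Introns had 77 gains and 62 losses, and sites between genes 54 gains and 38 losses.

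All 5 promoter sites, 2.02% of the DMSs beside 0.749% on other chromosomes, were gains. With so few sites and 58.5% gains over the chromosome, that split is a description. The 2 largest promoter gains lay almost at a gene start. LHB encodes the beta subunit of luteinizing hormone, and a gain of 47.9 points (q = 6.4e-33) was 4 bp before it, at a site that the table labels NTF4, a neurotrophin gene on the far side. HPDL encodes a mitochondrial relative of hydroxyphenylpyruvate dioxygenase, and a gain of 44.2 points (q = 2.4e-31) was 29 bp before it, at a site labelled TOE1, a nuclear RNA exonuclease gene. The other promoters were of LOC110261340 (38.5 points), LOC100518491 (25.3) and LOC100739859 (25.3). For LHB and HPDL the 200 bases before the gene are shown in the direction of the gene, from chr6:54269287-54269486 and chr6:166015052-166015251 on the minus strand.
LHB promoter: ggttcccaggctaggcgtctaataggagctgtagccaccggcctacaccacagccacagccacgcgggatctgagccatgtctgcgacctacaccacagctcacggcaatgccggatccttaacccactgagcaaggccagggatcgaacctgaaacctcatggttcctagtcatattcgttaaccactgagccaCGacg
HPDL promoter: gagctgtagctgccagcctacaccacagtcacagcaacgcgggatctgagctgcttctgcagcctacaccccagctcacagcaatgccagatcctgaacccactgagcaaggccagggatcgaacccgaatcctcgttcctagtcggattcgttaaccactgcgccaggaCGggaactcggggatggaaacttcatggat

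All 5 promoter sites are soft-masked, which is how the reference marks repeats, and at 2 of them, LHB among these, a copy of the repeat described further on lay within 150 bp. In UTRs, besides SKI and LENG8, gains were found in MLYCD, the malonyl-CoA decarboxylase (26.6 points), in RNF207, a RING finger protein (27.8), and in the 5' UTR of ZNF114 (26.5), and losses in PLOD1, a lysyl hydroxylase of collagen (-25.2), and in GINS2, a replication factor whose 3' UTR overlaps GSE1 (-26.1).

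CpG context followed the rest of the genome under a lenient definition and less so under a strict one. With islands defined by a length of at least 200 bp, a GC share above 0.5 and a ratio of observed to expected CpG above 0.6, 68.5% of DMSs on chromosome 6 and 67.4% on other chromosomes were inside. For islands of at least 500 bp, with limits of 0.55 and 0.65, the shares were 11.3% and 17.0%. Most DMSs thus lay in short CpG-rich stretches and few in long islands.

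Many of those short stretches were repeats. Of the DMSs on chromosome 6, 168 (67.7%) were soft-masked, beside 62.9% on other chromosomes and 31.4% of all 2673125 CpGs of chromosome 6. Most of those CpGs were not tested, and the masked share of the tested ones is unknown, so the last share is a description. Gains made up 61.9% of masked and 51.2% of unmasked DMSs.

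A particular repeat stood out in the cut fragments. MspI would cut chromosome 6 into 232914 fragments between neighbouring CCGG sites, and the most common length, 74 bp, occurred 5677 times, whereas the next, 6 bp, occurred 1357 times. Most of these 74 bp fragments (90.2%) were within 15 edits of 1 sequence of 78 bases that includes both cut sites. That sequence, which the fragments beside FGF21 and in USP24 match in every base and whose letters resemble the tRNA-derived short interspersed elements of the pig, had 292 exact copies on chromosome 6. A copy within 15 edits lay within 150 bp of 129 DMSs (52.0%) of the chromosome, and within 150 bp of 19.2% of 14169 reference CpGs, which were every 100th CpG of chromosome 6 that was at most 150 bp from CCGG. Those CpGs were not all sequenced, so the shares are set side by side as a description. With a copy nearby 62.8% of DMSs were gains and without one 53.8%, and the median size was 31.5 and 31.4 points. Of the 25 large sites 10 had a copy, among them BCAT2, CCDC114, BSPH1, MYBPC2, BICRA and the WWOX pair.

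In all, 14 DMSs (5.65%, beside 4.04% on other chromosomes) lay in 74 bp fragments themselves, 8 gains and 6 losses. They fell in 12 of the 5677 fragments of this length on chromosome 6 (0.211%). How many of these fragments were sequenced is not known. The same CpG of the repeat changed in different directions at different places. At the CpG that opens the fragment, the difference was -42.2 points near ADAMTS18, 41.9 near GPT2 and 38.1 in LOC110261296. At the CpG that starts at base 35, it was 26.3 points near ZFHX3 and -25.9 between genes close to FGF21. At base 28 it was 33.7 points in USP24, 27.8 in AK5 and 26.5 near ZFHX3. The sequences of 4 of these fragments are shown in the direction of the repeat, with the differential CpG in capitals, because the first 2 are identical in every base and still had opposite differences at CpGs 7 bp apart.
FGF21 side, loss: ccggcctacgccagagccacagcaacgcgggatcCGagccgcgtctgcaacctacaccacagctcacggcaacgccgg
USP24 intron, gain: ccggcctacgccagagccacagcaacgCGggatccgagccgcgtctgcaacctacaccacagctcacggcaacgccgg
ADAMTS18 side, loss: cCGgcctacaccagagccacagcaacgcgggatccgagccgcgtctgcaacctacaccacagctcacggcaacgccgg
GPT2 side, gain: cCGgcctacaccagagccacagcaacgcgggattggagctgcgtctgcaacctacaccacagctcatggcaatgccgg

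These fragments are at chr6:54095792-54095869, chr6:157230997-157231074, chr6:10672713-10672790 and chr6:37697617-37697694, all on the plus strand. A read that held only the FGF21 or the USP24 fragment would match 292 places of chromosome 6 equally well, and the ADAMTS18 fragment has 45 exact copies. The GPT2 fragment has 1. How reads from such copies were placed was not tested, so the position of DMSs inside exact copies is uncertain.

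**Figure D5:**
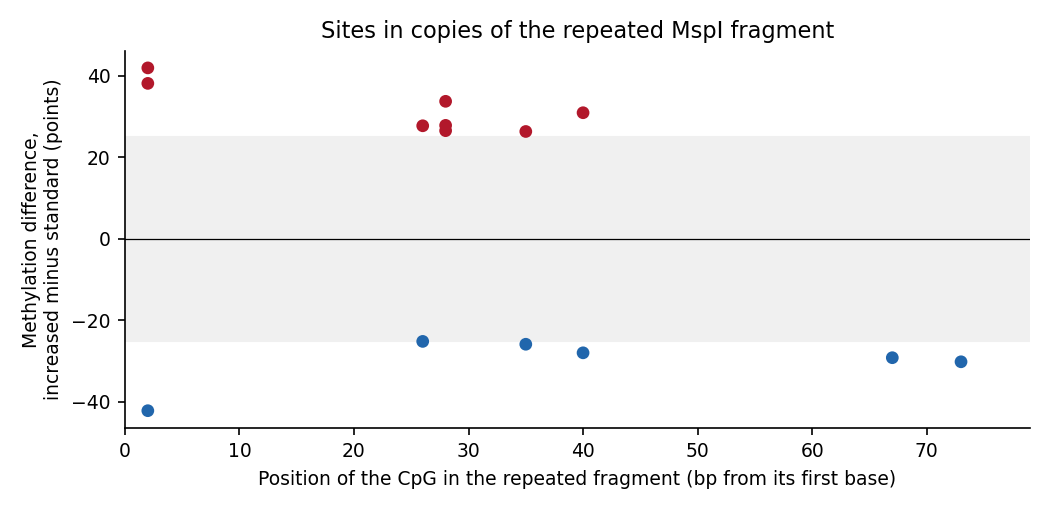
Methylation difference (vertical axis, percentage points, increased minus standard dose) of the 14 DMSs inside 74 bp MspI fragments against the position of the CpG in the fragment (horizontal axis, bp from its first base in the direction of the repeat). Gains (red) and losses (blue) occur at the same positions, for example 41.9, 38.1 and -42.2 points at the opening CpG, and the grey band marks sizes under 25 points.

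Motifs of the vitamin D receptor were looked for in the letters around the DMSs. The direct repeat 3 element of the receptor, its half-site given as a tandem repeat with a spacer of 3 bases, was searched on both strands in windows of 501 bp. No window centred on a DMS of chromosome 6 held it (0 of 248), and 0.176% of the windows around the 14169 compared CpGs did. At so low a share, 248 windows are too few to tell whether DMSs differ from the compared CpGs. The absence of the letters says nothing about binding.

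Gene families were then read off chromosome 6. They were chosen with earlier results of these data known, and gene length and tested CpGs were not taken into account. Their shares of genes with a DMS are thus descriptions. RefSeq has 2072 protein-coding genes on chromosome 6, of which 113 (5.45%) had a DMS in their body. The median signed difference over all 248 DMSs was 26.4 points. Because no DMS is under 25 points in size, a median over both directions mainly shows which direction is in the majority. That holds for the family medians below as well. Among vitamin D and retinoid handling genes none of 7 had a DMS.

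Zinc finger genes had a DMS in 9 of 95 members (9.47%). Their 11 DMSs were 10 gains and 1 loss, with a median of 33.0 points. The largest were ZNF541 (45.5 points), ZNF304, ZNF8 and the loss of -39.8 at ZFP1. Kinases and phosphatases had 6 of 40 (15%), with 6 gains and 1 loss and a median of 27.7. Besides PRKCZ, ROR1, a receptor of the Wnt pathway, gained 33.3 points (q = 6.2e-59), AK5, an adenylate kinase, gained 27.8, and MKNK1, which phosphorylates the cap-binding factor eIF4E, had -32.1.

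Branched-chain and other amino acid enzymes had 4 of 13 members with a DMS (30.8%), 3 gains and 4 losses with a median of -25.7. BCAT2 and GOT2, the mitochondrial aspartate aminotransferase (32.3 and 33.9 points), had gains, and PEPD and ETFB had losses. Actin and myosin genes had 6 of 23 (26.1%), 3 gains and 4 losses with a median of -28.3. MYBPC2 gained 52.2 points, MYH14, a non-muscle myosin heavy chain, had -33.9, and KLHL36, a Kelch-family member, had -29.4.

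Developmental transcription factors had 4 of 37 (10.8%), 2 gains and 5 losses with a median of -27.5. MEIS3, CAMTA1 and PRDM16, a regulator of brown fat (-27.5), had losses and SKI had gains. Chromatin regulators had 2 of 23 (8.70%), BICRA and GSE1, a coregulator, with 6 losses and a median of -27.8, to which the table symbols add the gain of 34.2 points past the end of BICRA. Ion channels had 3 of 26 (11.5%), and by gene bodies all were gains, in GRIN2D, in PIEZO1, a mechanosensitive channel (27.3 points), and in GRIK3, a kainate receptor subunit (25.4). By table symbol the loss of -51.6 at CACNG8 joins them, for 3 gains and 1 loss. That site is between genes in RefSeq but in an intron of CACNG8 by the paper's annotation.

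Adhesion and guidance molecules had 5 of 49 (10.2%), 4 gains and 1 loss with a median of 25.3. DRAXIN, a repellent of growing axons (30.2), NEGR1, a neuronal adhesion protein (28.9), and CNTNAP4 (25.3) had gains, and CLSTN1, a calsyntenin (-26.4), a loss. Immune genes had 3 of 64 (4.69%). An intron of CCL17, a chemokine for Th2 cells, had -37.5 points (q = 3.4e-108), at a site that also lies in CIAPIN1 and carries that symbol in the table. NLRP11 had -31.0, and NLRC5, the transactivator of MHC class I genes, 25.1. The direction of the immune genes turned with the gene model, from 1 gain and 2 losses by gene bodies to 4 gains and 1 loss by table symbol. Solute carriers and pumps had only SLC12A3, the sodium chloride cotransporter (26.0, 1 of 38), and small GTPase regulators only CYTH2 (1 of 17), with 2 gains and 1 loss by table symbol. Most of these families have so few members with a DMS that their splits of gains and losses are descriptions.

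Other large differences with a symbol lay outside the families and the stretch. A site 2923 bp before MMP15, a membrane-bound matrix metalloproteinase, had -48.7 points (q = 3.0e-107). TDRD12, of the piRNA pathway, gave its symbol to -45.1 points at a site 2472 bp from NUDT19, and VPS13D, a lipid transfer protein, gained 46.8 points in an intron (q = 1.1e-67). Within the stretch, a site 842 bp from EMC10, of the endoplasmic reticulum membrane complex, had -45.0 and an intron of EHD2, an ATPase of caveolae, had -41.6. Outside it and without a symbol, an intron of LOC110261352 had -43.7 points (q = 5.7e-25) at 42252177.

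Sites of similar size could have very different q-values. Still, the 62 DMSs of the stretch of large sites had a median q-value of 2.6e-31, and the other 186 had 8.7e-14. The association of size with q-value was not tested. Among the 32 DMSs under 26 points, q-values ran from 3.4e-82 (at LOC100739859) to 7.7e-04 (GRIK3). Over chromosome 6 the median q-value was 1.0e-16, and 13 sites were under 1e-100. Read depth per site is unknown, so how far it sets these q-values was not tested.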

How the data were processed

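Lung DNA of 16 pigs was grouped by the sample labels (8 standard, 8 increased dose). Per the study's methods, reads of bisulfite libraries cut with MspI were trimmed with FlexBar, aligned with BSMAP and compared with methylKit. FastQC, methylKit 1.26.0 and Sscrofa11.1 are also in the submitters' processing notes. CpGs with more than 5 reads were tested, and those past 25 points with q below 0.05 kept. Each row of the deposited file has a p-value and a q-value computed by the authors. Its methylation difference, a signed score in points computed by the authors, was read as increased minus standard dose, which the table does not state. These are the authors' own comparison, the table's only measurements, described here as they stand. It has no values per animal and no depth, so nothing was refitted and precision at a site is unknown.

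Positions were matched to the RefSeq copy of Sscrofa11.1, in which all 248 sites of chromosome 6 are CpGs. No step of row number exceeded the reference CpGs between neighbouring sites (0 of 247). Gene classes, islands (shores of 2000 bp), MspI fragments and repeat copies were computed with Python 3.11.15, pandas 2.3.3, scipy 1.17.1 and edlib, and the counting functions were tested on simulated data. Intervals are exact 95% binomial intervals over sites and cover counting only. No test over sites was made.

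The members and the 12 gene groups, which are symbol patterns, were chosen with earlier results of these data known. Named were the 10 largest gains and losses with a symbol, genes with at least 3 sites, the 5 largest gains and losses without a symbol, sites in promoters, UTRs or exons, up to 4 genes per group (of which 1 is not reported here), sites of at least 50 points from 53 to 57 Mb and close pairs of opposite direction. CFAP74, FA2H, the groups of 4 sites, UTR sites past the first 10 and the repeat copies were picked after their values were seen. Alternatives were other limits on q-value and size, joined sites, other gaps, islands, gene models and windows.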

Additional observations from a re-analysis of the deposited data

How the results depend on the processing

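The share of gains stayed within its interval under all 7 alternatives. A q-value under 1e-10 moved the median gain to 35.8 and the median loss to -36.3 points. The share of large sites was 16.5% at 45 points, 24.6% at 40 and 3.37% without 53 to 57 Mb. At gaps up to 50 bp, 100% of neighbouring pairs went the same way. Gene symbols of the table put 54.0% of sites in genes, and strict islands held 11.3%. The other alternatives, of 24 in all, moved nothing past its interval or, for windows, by over 1.5 times. Leaving out single animals and a coverage minimum could not be run because the table holds neither values per animal nor depth. No paired analysis was possible because there are no values per animal. The limit of 25 points cuts the sizes from below.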
